A study of Danio rerio with 36 samples.

Results

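The genes described are those of the phototransduction cascade and the outer segment of rods and cones other than the opsins. They comprise transducin, phosphodiesterase 6, the cyclic nucleotide-gated channel and its exchangers, the guanylate cyclases and their activators, the opsin kinases and recoverins, the arrestins, RGS9, the phosducins, and the disc proteins peripherin and ROM1. Members were the rows of both deposited tables whose gene symbol was on a given list of 47 symbols. Of these, 46 were found in both tables among 24860 genes in experiment 1 and 25077 in experiment 2, the symbol cnga1 being absent, and all 46 were among the genes tested in each experiment. They were sorted into 10 rod forms, 16 cone forms and 20 that are used by both cell types or whose form was not assigned.

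The study asked which molecular changes accompany hyperactivity in larvae raised without microbes. RNA was measured in 36 libraries, each a pool of heads cut anterior to the swim bladder from zebrafish larvae of a mixed wild-type line at 10 days post fertilization, and the number of larvae in a pool was not given in the sources used here. Axenic larvae were kept free of microbes, re-colonized larvae were made axenic and given microbes on day 1 as a control for that procedure, and conventional larvae carried microbes throughout. There were 6 libraries of each group in experiment 1, and in experiment 2 there were 4 axenic, 7 re-colonized and 7 conventional ones. The heads contain the eyes together with brain, pineal, skin and other tissues, so a level in these libraries is a level in the whole head.

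In a photoreceptor, a light-activated opsin turns on transducin, whose alpha subunit releases the inhibitory gamma subunit from phosphodiesterase 6, cyclic GMP is broken down, and the channel in the outer segment membrane closes. The cell recovers when opsin kinase and arrestin silence the pigment, RGS9 speeds transducin's return to its resting state, and guanylate cyclases, driven by calcium-sensing activator proteins, remake cyclic GMP. Rods serve dim light and cones serve bright light and colour, many of the steps use separate genes in the 2 cell types, and vision in zebrafish larvae of this age relies largely on cones.

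Total counts per library ranged from 11716737 to 15017645 in experiment 1 and from 15148068 to 25760598 in experiment 2. The 46 genes took between 0.125% and 0.324% of the counts in experiment 1 and between 0.437% and 0.937% in experiment 2. In experiment 2, re-colonized libraries 1 and 7 stood apart, with scaling factors of 1.55 and 1.38 against 0.769 to 1.21 in the other libraries of both experiments. Nothing in the labels says that pools of a group came from separate spawnings, so the p-values rest on variation among these particular pools, which may in part be technical. In experiment 1 the library names of the conventional group carry a different tag from those of the other groups, and that tag and the conventional group cannot be told apart. In experiment 2 the last number in the names does not repeat within the axenic and re-colonized libraries, and conventional libraries reuse some of those numbers. What the number stands for is not given. Any separate handling of the conventional libraries could not be told apart from their group. In each table the listed spans of 13 members overlap that of another gene, which leaves their reads uncertain. The members were arr3a, cngb3.1, gnat2, gnb1a, gnb3b, grk1b, guca1a, guca1c, gucy2d, pde6a, rgs9a and slc24a1 in both tables. Added to these were gngt1 in experiment 1 and rom1b in experiment 2. A listed span may join separate loci of one symbol, which was not checked.

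In experiment 1, most of these genes had a higher level, relative to the library's total, in axenic heads than in heads of either colonized group. Against conventional heads, 29 of the 46 rose, 1 fell and 16 did not pass the test (edgeR quasi-likelihood test, Benjamini-Hochberg adjusted p under 0.05 over all 19727 genes tested). The same test called 8.89% of all genes higher and 6.71% lower. The median log2 fold change was 0.56 over the members and -0.008 over all genes tested, and the members ranged from -0.59 (pde6ga) to 1.26 (gngt2b). In 17 members every axenic library lay above every conventional one, which held for 3.8% of all genes. Heads were measured in bulk and levels are relative to each library's total. The number of photoreceptors, the RNA per photoreceptor and the share of other head tissue therefore cannot be told apart.

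Against re-colonized heads of experiment 1, 28 rose, none fell and 18 did not pass, where 8.67% of all genes were called higher and 8.27% lower. The median log2 fold change was 0.54 over the members and 0.009 over all genes, and 44 of 46 were above 0. Groups did not overlap in 11 members, beside 3.01% of all genes. In all, 26 members rose against both colonized groups, 31 rose against at least one, and 14 passed against neither. Both comparisons share the axenic libraries, so the counts are not independent of each other.

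**Figure D1:**
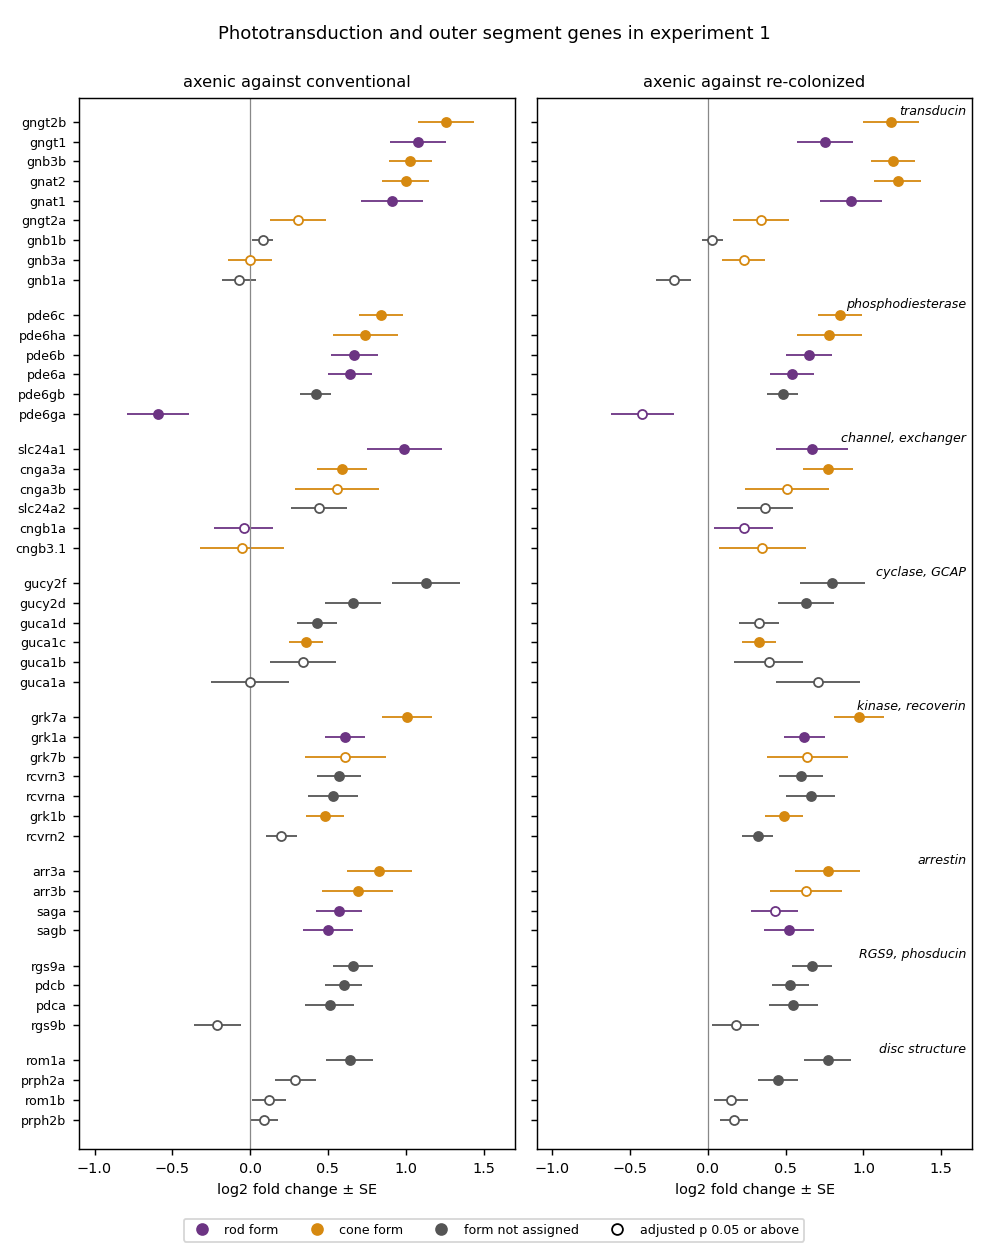
Log2 fold change (points) with its standard error (bars) for the 46 genes in experiment 1, axenic against conventional heads (left) and against re-colonized heads (right), grouped by role and coloured by form; filled points passed at an adjusted p under 0.05. Most points lie to the right of 0 in both panels, pde6ga is the only filled point on the left, and gngt2b, gnb3b and gnat2 lie at or above 1 in both.

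Transducin, the G protein that carries the signal from opsin, had the highest median change of the 8 roles, 0.91 against conventional and 0.75 against re-colonized heads on the log2 scale. Of its 9 genes, 5 rose against each colonized group. The cone alpha subunit gnat2 was at 118.7, 128.2, 150.3, 174.4, 178.6 and 183.8 CPM (a count relative to its library's total, after scaling for composition) in axenic heads. It ranged from 50.7 to 99.96 with a median of 79.7 in conventional heads, and from 54.8 to 79.2 with a median of 68.7 in re-colonized heads. The lowest axenic library lay above all 12 colonized libraries. The log2 fold change of gnat2 was 1.00 (SE 0.15, adjusted p = 4.91e-05) against conventional and 1.22 (SE 0.15, adjusted p = 3.8e-06) against re-colonized heads.

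The cone gamma subunit gngt2b ranged from 83.5 to 165.5 CPM in axenic heads (median 112.1), from 39.2 to 62.7 in conventional heads (median 49.4) and from 29.5 to 67.0 in re-colonized heads (median 54.2). Axenic heads did not overlap with either colonized group. Its log2 fold change was 1.26 (SE 0.18, adjusted p = 2.13e-05) against conventional heads and 1.18 (SE 0.18) against re-colonized heads. The cone beta subunit gnb3b rose by 1.03 (SE 0.14) and 1.19 (SE 0.14) on the log2 scale, also with no overlap. The reads of gnat2 and gnb3b are uncertain to a small extent, since each span overlaps that of a gene on the opposite strand.

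Rod transducin rose as well. The rod alpha subunit gnat1 ranged from 8.88 to 18.3 CPM in axenic heads (median 12.2), from 4.52 to 8.15 in conventional heads (median 7.30) and from 3.26 to 9.42 in re-colonized heads (median 6.44). Axenic and conventional libraries did not overlap, while the highest re-colonized library lay above the lowest axenic one. The changes were 0.91 (SE 0.20, adjusted p = 0.00215) and 0.92 (SE 0.20, adjusted p = 0.00174) on the log2 scale.

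The rod gamma subunit gngt1 ranged from 16.6 to 37.0 CPM in axenic heads (median 20.7), from 8.66 to 14.5 in conventional heads (median 11.2) and from 8.04 to 15.9 in re-colonized heads (median 15.4). It overlapped in neither comparison and rose by 1.08 (SE 0.18) and 0.75 (SE 0.18). In the table of experiment 1 the listed span of a small nucleolar RNA family on the same strand covers all of gngt1. Whether that row joins separate copies was not checked, so the reads of gngt1 there are uncertain. The 4 transducin genes that passed in neither comparison were gngt2a, gnb3a, gnb1a and gnb1b. Of these, gngt2a was at 5.15 to 10.4 CPM in axenic, 3.37 to 7.44 in conventional and 4.47 to 7.57 in re-colonized heads, with overlap. The log2 fold changes of all 4 lay between -0.07 and 0.31 against conventional heads and between -0.22 and 0.34 against re-colonized heads. The beta subunits gnb1a and gnb1b are shared by many G proteins outside the eye. The listed span of a calcium channel gene on the same strand covers all 64995 bases of gnb1a, so the reads of gnb1a are uncertain.

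**Figure D2:**
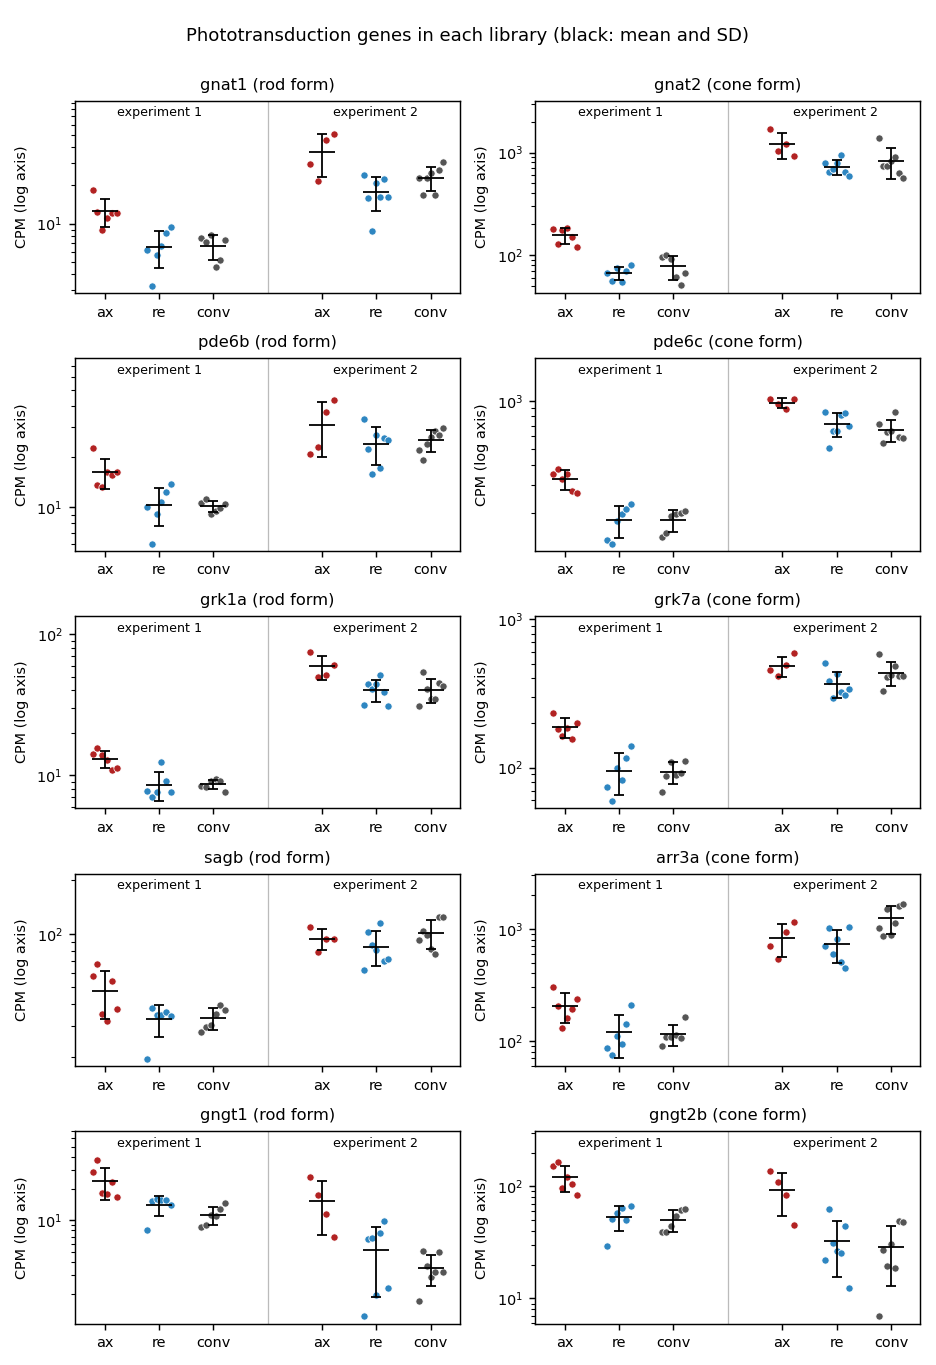
CPM on a log axis in every library (points) with the mean and SD of each group (black) for 5 rod forms (left) and 5 cone forms (right), in axenic (ax), re-colonized (re) and conventional (conv) heads of the 2 experiments. In experiment 1 the axenic points of gnat2, pde6c, grk7a, gngt1 and gngt2b lie above all colonized points, whereas in experiment 2 the groups of most genes overlap and arr3a has its highest mean in conventional heads.

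Of the 6 genes of phosphodiesterase 6, the enzyme that breaks down cyclic GMP, 5 rose against each colonized group and the other, pde6ga, was lower. The cone catalytic subunit pde6c changed by 0.84 (SE 0.14, adjusted p = 0.000103) against conventional and 0.85 (SE 0.14, adjusted p = 8.33e-05) against re-colonized heads on the log2 scale, with no overlap in either. It ranged from 267.3 to 377.5 CPM in axenic heads (median 336.5), from 141.0 to 206.3 in conventional heads (median 194.4) and from 128.7 to 228.7 in re-colonized heads (median 187.8). The rod catalytic subunits changed by similar amounts, pde6b by 0.67 (SE 0.15) and 0.65 (SE 0.15), and pde6a by 0.64 (SE 0.14) and 0.54 (SE 0.14).

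The rod subunit pde6b was at 13.2 to 22.5 CPM in axenic heads (median 15.8), 9.12 to 11.2 in conventional heads (median 10.2) and 6.06 to 13.7 in re-colonized heads (median 10.4). The axenic libraries lay above all conventional ones and overlapped the re-colonized ones at their lower end. The inhibitory cone subunit pde6ha rose by 0.74 (SE 0.21) and 0.78 (SE 0.21), and pde6gb, another inhibitory subunit, by 0.42 (SE 0.10) and 0.48 (SE 0.10).

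The gene pde6ga, which encodes the inhibitory gamma subunit of the rod enzyme, was the only member that fell. It was at 6.20, 6.67, 7.79, 7.94, 10.7 and 13.7 CPM in axenic heads, and at 8.00, 11.7, 12.5, 13.4, 14.5 and 19.9 CPM in conventional heads. The groups overlapped, with 4 axenic libraries below every conventional one and axenic D and G inside the conventional range. The log2 fold change was -0.59 (SE 0.20, adjusted p = 0.049), close to the threshold, and the call was lost in 17 of 26 other settings, among them limma voom, the fit without a filter and the fits without axenic A, C, F or H, re-colonized E, F or G, or conventional A, B, C, F or G. Against re-colonized heads, which ranged from 7.32 to 16.1 CPM, the change was -0.42 (SE 0.20, adjusted p = 0.17). In experiment 2 it was 0.04 (SE 0.37) against conventional heads.

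The channel and the exchangers, which carry the current of the outer segment and remove its calcium, had fewer calls, with 2 of 6 genes higher in each comparison. These were the cone channel subunit cnga3a and the rod sodium, calcium and potassium exchanger slc24a1. The former was at 11.3 to 16.7 CPM in axenic heads (median 13.7), 7.83 to 11.2 in conventional heads (median 8.85) and 4.71 to 11.5 in re-colonized heads (median 8.45), with overlap against re-colonized heads alone, and rose by 0.59 (SE 0.16) and 0.77 (SE 0.16). The exchanger slc24a1, a weakly detected gene, was at 2.02 to 4.04 CPM against 1.08 to 1.78 in conventional heads and rose by 0.99 (SE 0.24).

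The slc24a1 call against re-colonized heads (0.67, SE 0.23) held in 13 of 26 other settings. Its span overlaps genes on both strands, which leaves its reads uncertain. The cone channel subunit cnga3b was at 15.6 to 19.8 CPM in axenic heads and spread from 4.97 to 21.3 in conventional and from 6.97 to 22.4 in re-colonized heads. Its changes of 0.56 (SE 0.27) and 0.51 (SE 0.27) did not pass. The rod beta subunit cngb1a was at 4.19 to 8.14 CPM in axenic heads (median 6.38), 4.41 to 9.63 in conventional heads (median 5.98) and 3.77 to 8.24 in re-colonized heads (median 4.91), and all groups overlapped. The channel's beta subunits did not pass either, with changes in cngb1a (rod) of -0.04 (SE 0.19) and 0.23 (SE 0.19), and in cngb3.1 (cone) of -0.05 (SE 0.27) and 0.35 (SE 0.28). The exchanger slc24a2 changed by 0.44 (SE 0.18) and 0.37 (SE 0.18) and did not pass.

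Both retinal guanylate cyclases among the members, which resynthesize cyclic GMP, rose against both colonized groups. The cyclase gucy2d was at 76.6 to 103.7 CPM in axenic heads (median 85.8), at 37.3 to 73.0 in conventional heads (median 58.3) and at 29.6 to 74.6 in re-colonized heads (median 63.8). No colonized library reached the lowest axenic one. The changes were 0.66 (SE 0.18, adjusted p = 0.0153) and 0.63 (SE 0.18, adjusted p = 0.0184). The listed span of kat5b, on the opposite strand, covers the whole gene. That span also covers grk1b, which starts at 54161362 on the same chromosome, where gucy2d ends at 38161034. The kat5b row therefore most likely joins separate loci. An antisense transcript overlaps gucy2d over 6204 bases, and the reads of gucy2d are uncertain.

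The second cyclase, gucy2f, was at 4.26 to 7.42 CPM in axenic, 1.06 to 3.37 in conventional and 2.01 to 4.39 in re-colonized heads, and rose by 1.13 (SE 0.22, adjusted p = 0.000712) and 0.80 (SE 0.21, adjusted p = 0.0106). Among the guanylate cyclase activating proteins, guca1c, a cone form in zebrafish, rose by 0.36 (SE 0.11) and 0.33 (SE 0.11). It was at 33.4 to 40.8 CPM in axenic, 22.1 to 37.6 in conventional and 22.7 to 33.0 in re-colonized heads, and its call against re-colonized heads held in 10 of 26 other settings. The activator guca1d passed against conventional heads (0.43, SE 0.13) and not against re-colonized heads, with 0.33 (SE 0.13, adjusted p = 0.0701). The activators guca1a and guca1b, both under 4 CPM in every library of experiment 1, passed in neither comparison. The listed span of another gene on the same strand covers all of guca1a.

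Genes that switch the response off also rose. The cone opsin kinase grk7a was at 156.1 to 233.2 CPM in axenic heads (median 184.3), at 68.9 to 111.1 in conventional heads (median 90.8) and at 59.4 to 140.4 in re-colonized heads (median 90.7). Axenic heads lay above all colonized heads, and the change was 1.01 (SE 0.16, adjusted p = 7.84e-05) and 0.97 (SE 0.16, adjusted p = 9.76e-05). The rod opsin kinase grk1a was at 10.9 to 15.6 CPM in axenic, 7.55 to 9.38 in conventional and 6.97 to 12.4 in re-colonized heads.

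The change of grk1a was 0.61 (SE 0.13) and 0.62 (SE 0.13), with overlap only against re-colonized heads. Its cone-expressed duplicate grk1b rose by 0.48 (SE 0.12) and 0.49 (SE 0.12). The listed span of kat5b covers grk1b too. Since that row most likely joins separate loci, whether kat5b itself overlaps grk1b is not known, and the reads of grk1b are uncertain. The kinase grk7b, at 0.562 to 1.85 CPM, did not pass (0.61, SE 0.26, and 0.64, SE 0.26). Of the recoverins, calcium sensors that hold the opsin kinases in check in the dark, rcvrn3 and rcvrna rose against both groups by between 0.53 and 0.66. The third, rcvrn2, rose against re-colonized heads (0.32, SE 0.10) and not against conventional ones (0.20, SE 0.10).

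All 4 arrestins, which cap the phosphorylated pigment, rose against conventional heads, and arr3a and sagb rose against re-colonized heads too. The cone arrestin arr3a was at 129.6 to 303.8 CPM in axenic heads (median 197.4), at 90.9 to 163.2 in conventional heads (median 107.6) and at 74.9 to 209.4 in re-colonized heads (median 102.8). The groups overlapped, with conventional H and re-colonized G and H above the lowest axenic library. The change of arr3a was 0.83 (SE 0.21, adjusted p = 0.0072) and 0.77 (SE 0.21, adjusted p = 0.0114).

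The cone arrestin arr3b changed by 0.69 (SE 0.23) and 0.63 (SE 0.23, adjusted p = 0.0645). The rod arrestins changed by 0.57 (saga, SE 0.15) and 0.50 (sagb, SE 0.16) against conventional heads. In sagb the axenic libraries spread from 32.1 to 67.4 CPM and overlapped the conventional ones at 27.8 to 39.8 and the re-colonized ones at 19.6 to 38.1. The calls of arr3b and sagb against conventional heads were lost in 9 and 8 of 26 other settings. The listed span of slc37a4b, on the opposite strand, covers all 11186 bases of arr3a, which leaves the reads of arr3a uncertain.

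The transducin-deactivating protein gene rgs9a was at 16.7 to 22.7 CPM in axenic, 10.7 to 14.5 in conventional and 8.64 to 16.9 in re-colonized heads, and rose by 0.66 (SE 0.13) and 0.67 (SE 0.13). Its duplicate rgs9b did not pass, at -0.21 (SE 0.15) and 0.18 (SE 0.15). The phosducins, which bind the transducin beta and gamma subunits, both rose, pdcb by 0.60 (SE 0.12) and 0.53 (SE 0.12) and pdca by 0.51 (SE 0.16) and 0.55 (SE 0.16). In pdcb the axenic libraries, at 29.8 to 44.3 CPM, lay above the conventional ones, at 17.5 to 29.0, and overlapped the re-colonized ones, at 20.5 to 30.3.

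The disc proteins, which shape the rims of the outer segment discs, had the lowest medians in experiment 1, 0.20 and 0.31. Only rom1a rose against both groups, by 0.64 (SE 0.15) and 0.77 (SE 0.15). The peripherin prph2b was at 123.8 to 164.6 CPM in axenic, 119.5 to 142.7 in conventional and 106.2 to 135.3 in re-colonized heads, and its changes of 0.09 (SE 0.09) and 0.17 (SE 0.09) did not pass. The other peripherin, prph2a, was at 53.3 to 72.3 CPM in axenic, 38.4 to 56.4 in conventional and 31.2 to 55.9 in re-colonized heads. It passed against re-colonized heads (0.45, SE 0.13) and not against conventional heads (0.29, SE 0.13). The second ROM1 gene, rom1b, changed by 0.12 (SE 0.11) and 0.15 (SE 0.11).

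Both rod and cone forms rose. Against conventional heads of experiment 1, 8 of 10 rod forms and 11 of 16 cone forms rose, with median log2 fold changes of 0.62 and 0.65, and against re-colonized heads 7 and 10 rose, with medians of 0.58 and 0.71. Of the 20 genes with no assigned form, 10 and 11 rose, with medians of 0.42 and 0.46. Summed over the cone forms, axenic libraries held 1251 to 1711 CPM, conventional libraries 619 to 947 and re-colonized libraries 567 to 1068. Summed over the rod forms the ranges were 130.7 to 183.0, 103.6 to 110.9 and 87.7 to 118.8 CPM. Neither sum overlapped between axenic and colonized heads in experiment 1. In experiment 2 both sums overlapped. The cone sums were 3551 to 4684 CPM in axenic, 2841 to 4302 in conventional and 2635 to 3608 in re-colonized heads. The rod sums were 261.4 to 398.7, 235.9 to 336.7 and 214.6 to 281.3 CPM.

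The log2 ratio of the cone sum to the rod sum was 2.97 to 3.39 in axenic, 2.56 to 3.15 in conventional and 2.44 to 3.26 in re-colonized heads of experiment 1, so the groups overlapped. Its mean was higher in axenic heads, at 3.21 ± 0.14 (SD, n = 6), than in conventional (2.86 ± 0.20, SD, n = 6) and re-colonized heads (2.82 ± 0.28, SD, n = 6). The sums and their ratio were not tested. In experiment 2 the ratios were 3.51 to 3.76, 3.38 to 4.05 and 3.43 to 3.89, also with overlap. The means there were 3.63 ± 0.12 (SD, n = 4) in axenic, 3.74 ± 0.24 (SD, n = 7) in conventional and 3.61 ± 0.16 (SD, n = 7) in re-colonized heads. Matching cone and rod genes of one step were compared as 7 pairs in each of 6 comparisons, by a two-sided exact permutation test on the log2 ratio within each library. None of the 42 tests passed Benjamini-Hochberg adjustment, and 7 had an unadjusted p under 0.05. Groups of 6 against 6 libraries could reach a p of 0.00216, and groups of 4 against 7 a p of 0.00303. A lone pair at either p would not pass over 42 tests. The lack of calls therefore does not show that cone and rod genes changed alike.

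The lowest p was that of gngt2b over gngt1 in axenic against re-colonized heads of experiment 1. The ratio was 2.36 ± 0.22 (SD, n = 6) against 1.91 ± 0.21 (SD, n = 6) on the log2 scale, a difference of 0.46 (exact permutation p = 0.00649, adjusted p = 0.258). For pde6ha over pde6ga, the inhibitory subunits, the ratio was higher by 1.31 in axenic than in conventional heads (exact permutation p = 0.0281, adjusted p = 0.258). For grk7a over grk1a the difference was 0.42 (exact permutation p = 0.0325, adjusted p = 0.258). For arr3a over saga in axenic against conventional heads of experiment 2 it was -0.78 (exact permutation p = 0.0212, adjusted p = 0.258). For gngt2b over gngt1 in re-colonized against conventional heads of experiment 1 it was -0.25 (exact permutation p = 0.0346, adjusted p = 0.258). The others under 0.05, in axenic heads of experiment 1, were gngt2b over gngt1 against conventional (0.21) and pde6ha over pde6ga against re-colonized heads (1.17). In none of the pairs did the groups separate without overlap at an unadjusted p under 0.05.

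**Figure D3:**
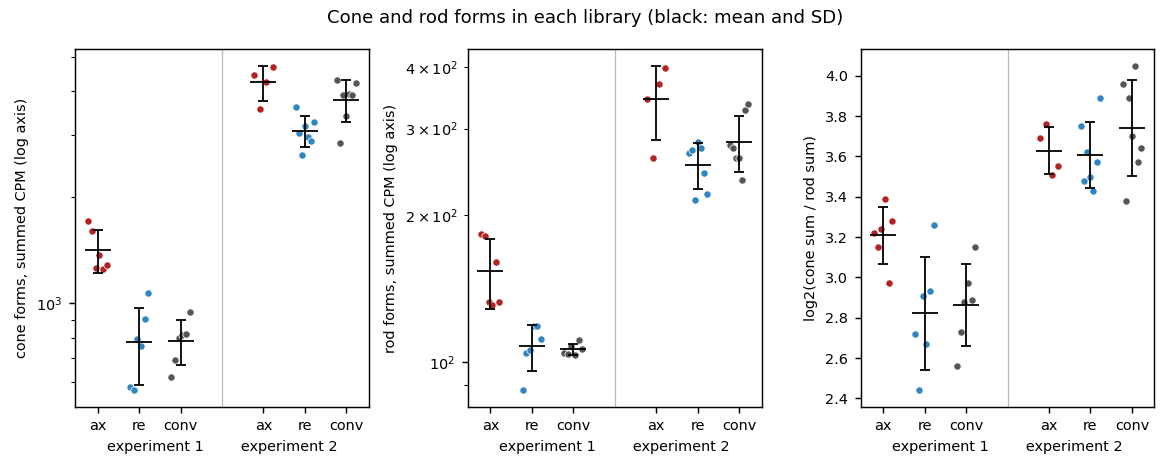
CPM summed over the 16 cone forms (left, log axis) and the 10 rod forms (middle, log axis), and the log2 ratio of the sums (right), in each library (points) with the mean and SD of each group (black). In experiment 1 both sums are higher in every axenic (ax) library than in every re-colonized (re) and conventional (conv) one, while the ratios of the groups overlap in both experiments.

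No member passed between re-colonized and conventional heads. In experiment 1 edgeR called 0 of 46, where it called 0.0152% of all genes, DESeq2 and limma voom called 0 too, and 2 members had an unadjusted p under 0.05. These were guca1a, lower in re-colonized heads by -0.72 (95% interval -1.28 to -0.16), and rgs9b, at -0.40 (95% interval -0.71 to -0.09). The share of all genes with an unadjusted p under 0.05 was not counted, so the count of 2 has no background beside it. The median change over members was -0.02 on the log2 scale. For gnat2 the change was -0.22 (SE 0.15), for pde6c -0.01 (SE 0.13) and for grk7a 0.03 (SE 0.16).

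In experiment 2 the same comparison also gave 0 of 46 by edgeR, DESeq2 and limma voom, where edgeR called 0% of all genes, and 7 members had an unadjusted p under 0.05. Of the 7, gngt2a was higher in re-colonized heads (0.86, SE 0.39) and pde6gb, pde6ha, arr3a, prph2a, prph2b and rom1b were lower, by -0.42 to -0.76. Here too the share of all genes under that unadjusted p was not counted, so the 7 are not shown to be particular to the members. The median over members was -0.04.

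In experiment 2, fewer members passed, all of them higher in axenic heads. Against conventional heads 5 of 46 rose (gngt1, gngt2a, gngt2b, gucy2d and gucy2f) and none fell, where 3.99% of all genes were called higher and 2.15% lower. Against re-colonized heads 3 rose (gnat1, gngt1 and gngt2b) and none fell, where 3.25% were called higher and 0.64% lower. The shares of members, 10.9% and 6.52%, were thus nearer to the background than in experiment 1. The median log2 fold change was 0.31 over the members and 0.04 over all genes against conventional heads, and 0.36 and -0.006 against re-colonized heads. The change was above 0 in 37 and 42 of the 46.

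Of the 29 members that rose against conventional heads in experiment 1, 25 had a change above 0 in experiment 2 and 4 of them passed there. Of the 28 that rose against re-colonized heads, 27 were above 0 and 3 passed. The median log2 fold change of the 29 was 0.66 in experiment 1 and 0.43 in experiment 2. That of the 28 was 0.67 and 0.47. These members were picked by passing in experiment 1, which favours larger changes there. The matching shares over all genes called higher in experiment 1 were not counted, so these counts have no background beside them. The spread between libraries was larger in experiment 2, with a common coefficient of biological variation of 35.5% over all genes against 16.5% in experiment 1, and with 4 axenic libraries rather than 6.

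Against conventional heads, the transducin gamma genes changed most in experiment 2. Rod gngt1 was at 25.7, 17.3, 11.4 and 6.88 CPM in axenic libraries 1, 3, 4 and 7. It ranged from 1.73 to 5.09 in conventional heads (median 3.23) and from 1.23 to 9.83 in re-colonized heads (median 6.70). All axenic libraries lay above the conventional ones, and axenic 7 lay inside the re-colonized range. The change was 2.11 (SE 0.44, adjusted p = 0.00482) against conventional heads and 1.56 (SE 0.43, adjusted p = 0.0428) against re-colonized heads.

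Cone gngt2b was at 136.6, 109.0, 83.7 and 45.1 CPM in the same axenic libraries, at 6.97 to 49.1 in conventional heads (median 27.2) and at 12.4 to 63.3 in re-colonized heads (median 26.3). Only axenic 7 overlapped the colonized libraries. The changes were 1.71 (SE 0.41) and 1.54 (SE 0.41). Cone gngt2a, which passed in neither comparison of experiment 1, was at 6.42, 5.15, 3.62 and 2.31 CPM in axenic and at 0.431 to 2.61 in conventional heads, and rose by 1.76 (SE 0.43, adjusted p = 0.0162). Against re-colonized heads, at 0.795 to 3.72 CPM, its change of 0.90 (SE 0.43, adjusted p = 0.326) did not pass.

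All 3 gamma genes had axenic 1 as their highest and axenic 7 as their lowest library. Other members were ordered differently: rod gnat1, at 29.5, 21.7, 45.4 and 50.8 CPM in axenic libraries 1, 3, 4 and 7, was highest in axenic 7, as were pde6b, gucy2f, pde6ha and arr3a. The change of gnat1 was 1.05 (SE 0.25, adjusted p = 0.0188) against re-colonized heads, at 8.72 to 24.3 CPM, and 0.68 (SE 0.25, adjusted p = 0.115) against conventional heads, at 16.7 to 30.5 CPM.

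The cyclases were the other genes that passed in experiment 2, both against conventional heads alone. Against re-colonized heads 0 of the 6 genes of the cyclases and their activators passed. gucy2d was at 229.0, 223.2, 175.5 and 246.5 CPM in axenic heads and at 109.2 to 177.7 in conventional heads (median 136.8), with only axenic 4 inside the conventional range. Its change of 0.62 (SE 0.18, adjusted p = 0.038) was close to 0.66 in experiment 1, and the call held in 12 of 27 other settings. gucy2f changed by 0.87 (SE 0.22, adjusted p = 0.0184) against conventional heads.

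The cone phosphodiesterase pde6c was at 1031, 952.1, 890.9 and 1023 CPM in axenic heads, at 548.7 to 854.5 in conventional heads and at 510.5 to 851.3 in re-colonized heads. The axenic libraries overlapped with neither group, yet the changes of 0.57 (SE 0.19, adjusted p = 0.084) and 0.44 (SE 0.19, adjusted p = 0.278) did not pass over all genes. Groups without overlap, with axenic above, were found for 2 of 46 members against conventional heads (gngt1 and pde6c) and 3 of 46 against re-colonized heads (gucy2d, pde6c and pde6gb). This held for 3.32% and 3.17% of all genes. Cone gnat2, with axenic libraries at 925.1 to 1687 CPM and conventional ones at 567.4 to 1389, changed by 0.55 (SE 0.24) and 0.73 (SE 0.24) and did not pass.

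Some calls in experiment 2 were lost when single libraries were left out. Leaving out axenic 1 reduced the 5 calls against conventional heads to 2, leaving out axenic 7 or conventional 3 to 3. The 3 calls against re-colonized heads fell to 0 without axenic 4, axenic 7 or re-colonized 7, and to 1 without axenic 1, re-colonized 1, 3, 4 or 5, or conventional 3 or 4. Without re-colonized 1 and 7 together 1 call was left. Against conventional heads the call of gngt1 held in all 27 other settings, those of gngt2a and gngt2b in 26 each, that of gucy2f in 25 and that of gucy2d in 12. Against re-colonized heads the call of gnat1 held in 24, that of gngt2b in 15 and that of gngt1 in 11.

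**Figure D4:**
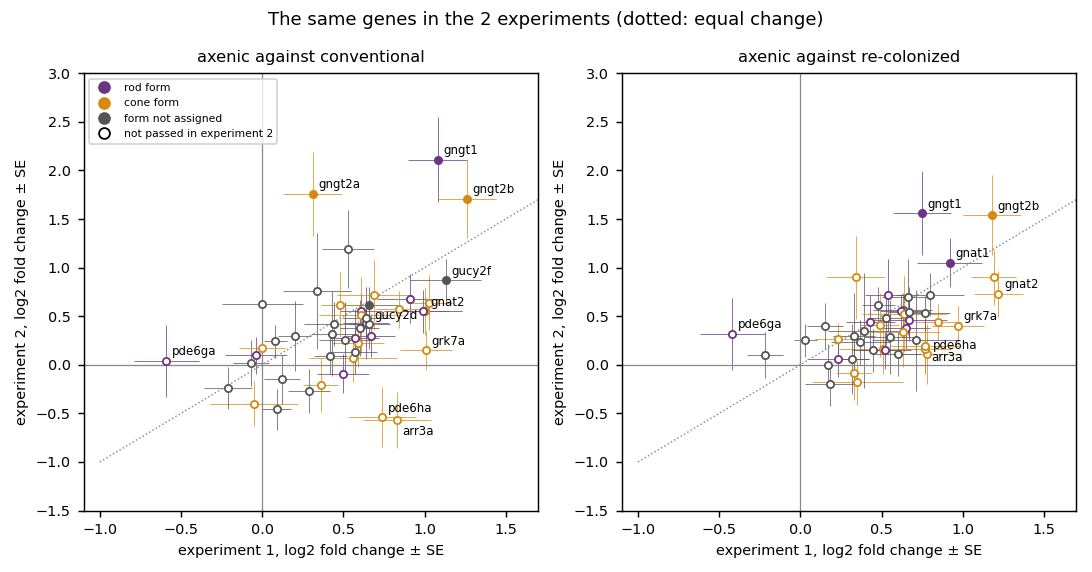
Log2 fold change of each of the 46 genes in experiment 1 (horizontal) and experiment 2 (vertical), with standard errors, for axenic against conventional heads (left) and axenic against re-colonized heads (right); filled points passed in experiment 2 and the dotted line marks equal change. Most points lie in the upper right of each panel, and the gngt genes lie above the line. In the left panel 37 of the 46 genes lie above 0 on the vertical axis. Among those that do not are arr3a, pde6ha, sagb and guca1c, which passed as higher in experiment 1. In the right panel arr3a and pde6ha lie above 0.

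Whether the experiments differed in a member was tested as an interaction over all 36 libraries. No member passed for axenic against conventional, axenic against re-colonized or re-colonized against conventional heads (edgeR, 0 of 46 in each, where 0.099%, 0% and 0% of all genes passed). The unadjusted p was under 0.05 for 8, 3 and 4 members, and the share of all genes at that level was not counted. The interaction was not fitted with another tool. With DESeq2's size factors in edgeR, or without re-colonized 1 and 7, the count stayed at 0 in each.

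The difference with the lowest p was that of arr3a for axenic against conventional heads. In experiment 2 arr3a was at 537.8 to 1158 CPM in axenic heads, at 861.6 to 1666 in conventional heads and at 448.2 to 1046 in re-colonized heads, and its change against conventional heads was -0.57 (SE 0.29), where it was 0.83 in experiment 1. The difference was 1.48 (SE 0.37, unadjusted p = 0.00028 and adjusted p = 0.0949 in edgeR). Those of grk7a (0.91, SE 0.25, adjusted p = 0.136), pde6ha (1.34, SE 0.39, adjusted p = 0.162) and gngt2a (-1.40, SE 0.48, adjusted p = 0.236) followed.

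Levels also differed between the experiments, and RNA selection, library kit, extraction and animals all changed together with the experiment. In conventional heads 35 members had a higher CPM in experiment 2 and 11 a lower one, with a median log2 ratio of 1.33. The ratio was 3.41 for gnat2 (77.9 ± 20.8 CPM, SD, n = 6, against 826.8 ± 272.0, SD, n = 7) and 3.43 for arr3a. It was -1.67 for gngt1, -2.21 for gngt2a and -0.81 for gngt2b, the genes with the largest changes against conventional heads in experiment 2, and also below 0 for guca1a, guca1b, guca1d, rcvrna, rcvrn2, arr3b, pde6ga and pdca. The part of the library method in these differences was not tested.

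Other lists of eye genes were measured beside the members, on the same scale and in the same fits, so the shares of all genes called that are given for the members apply to them too. The cone and rod opsins, the pigments that start the cascade, rose in experiment 1 in 6 of 6 tested genes against conventional heads, with a median log2 fold change of 1.45, and in 6 of 6 against re-colonized heads, with a median of 1.51. The smallest adjusted p was that of opn1lw2, a long-wavelength opsin (2.34, SE 0.19), and rho, the rod pigment, changed by 0.83 (SE 0.14). In experiment 2, 5 of 7 and 4 of 7 rose, with medians of 1.72 and 1.55. Their summed level was 1404 to 2107 CPM in axenic and 755 to 948 in conventional heads of experiment 1.

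Further genes of phototransduction outside the members gave 1 of 18 higher against conventional heads (median 0.29) and 6 of 18 against re-colonized heads (median 0.34) in experiment 1. The gene called in the first was gnb5b (0.95, SE 0.13, adjusted p = 1.75e-05), whose mammalian counterpart is the partner of RGS9. Against conventional heads other outer segment genes gave 5 higher and 1 lower of 22 (median 0.06), with rp1l1b at 0.91 (SE 0.19). Genes of the visual cycle, which renews the chromophore, gave 8 of 22 higher (median 0.35), among them rgrb (0.70, SE 0.16), rlbp1a (0.64, SE 0.16) and rdh5 (0.69, SE 0.18). Against conventional heads of experiment 2, edgeR called 0 of 18 other phototransduction genes (median 0.25) and 0 of 23 other outer segment genes (-0.08). Of 20 visual cycle genes it called 2 higher and 1 lower (-0.01).

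Of 23 regulators of photoreceptor identity, among them crx, nr2e3, thrb and six7, edgeR called 0 in experiment 1 against either colonized group, with median changes of 0.04 and 0.07. The unadjusted p was under 0.05 for 1 and 2 of them, and DESeq2 and limma voom called 0 too. Their summed level was 448 to 485 CPM in axenic, 397 to 474 in conventional and 392 to 477 in re-colonized heads, so the groups overlapped. The list also holds genes such as neurod1, six6a, tbx2b and rorb. Levels are of the whole head with its brain, so the list does not measure photoreceptors alone. In experiment 2, 1 of 23 (rorb) rose against conventional heads and the median was -0.13.

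Markers of other cells of the eye, and of the pineal, were counted in the same way against conventional heads of experiment 1. These lists hold genes such as gad2, elavl3 and gfap, and levels are those of the whole head with its brain. The lists thus do not measure the named cells alone. The share of all genes called higher in that comparison was 8.89%, and the shares of several of these lists were near it. Bipolar cell markers gave 1 of 11 higher (median 0.07), amacrine, horizontal and ganglion cell markers 2 of 17 (0.07), Müller glia markers 2 of 10 (0.12) and pineal markers 1 of 11 (0.03). Pigment cell markers gave 3 higher and 1 lower of 12 (0.30), and lens genes 3 of 22 (0.20). Against re-colonized heads, where 8.67% of all genes were called higher, pigment cell markers gave 7 higher and 1 lower of 12 (0.36) and lens genes 7 of 22 (0.30).

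The summed level of the pigment cell markers was 270 to 406 CPM in axenic, 215 to 275 in conventional and 203 to 284 in re-colonized heads of experiment 1, and that of the lens genes 11690 to 15740, 11750 to 13600 and 9947 to 12730. In experiment 2 the lens genes spread from 16940 to 75920 CPM among conventional libraries and their median change against conventional heads was -0.72, with 0 of 22 called by edgeR. The part of lens, pigment or other eye tissue in the changes of the members was not tested. Several lists share genes, and rlbp1a is in both the visual cycle and the Müller glia list.

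**Figure D5:**
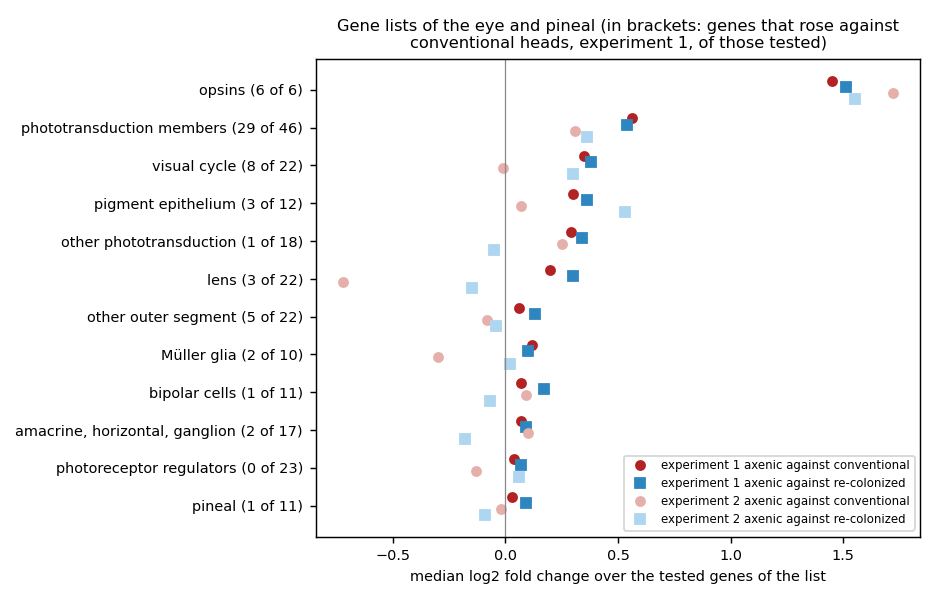
Median log2 fold change over the tested genes of each list, for axenic against conventional heads (circles) and axenic against re-colonized heads (squares) in experiment 1 (dark) and experiment 2 (light); in brackets is the number of genes that rose against conventional heads in experiment 1, of those tested. The opsins lie farthest to the right at 1.45 to 1.72, the phototransduction members lie between 0.31 and 0.56, and the photoreceptor regulators lie near 0.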

How the data were processed

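RNA was sequenced from 36 libraries of pooled larval heads. Per the labels' protocols, experiment 1 used rRNA depletion and a stranded kit, and experiment 2 polyA selection. Per the submitters' processing notes, bcl2fastq, Partek 8.0.19.0428 and STAR 2.5.3a were used with GRCz11; which annotation was used, and whether strand was, is not given in the sources used here, and overlapping genes may share reads. The authors deposited estimated counts per gene, not normalized. Of these values 9.44% and 17.3% lay more than 0.01 from a whole number, where whole counts had been assumed when the tests were chosen, so they were rounded before testing.

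Each experiment was fitted apart with edgeR 4.0.16 in R 4.3.3 (quasi-likelihood, group means over 18 libraries, TMM scaling, filterByExpr), leaving 19727 and 20169 genes. Adjusted p-values are Benjamini-Hochberg over all genes tested, with a threshold of 0.05. CPM values use TMM-scaled library sizes. Log2 ratios of cone to rod genes had 0.5 counts added to each gene. Alternatives used DESeq2 1.42.0, limma 3.58.1, other scalings, filters and sample sets. The procedure was tested on simulated counts. No 2 libraries of a group agreed within sampling noise. Levels are not compared between genes, since transcript lengths were not used here.

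Members, lists and alternatives were chosen with earlier results of these data known. Values of single libraries, or their range in a group, are given for the rod and the cone form with the highest mean in each role. The same holds for members that fell and for those that passed in experiment 2. Other members were named to account for all of them. From the other lists, genes named are among the 4 with the smallest adjusted p of their list, or were named after their values were seen (rho and rorb), as examples of a list, or as the only call. The result of one gene is not reported here.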

Additional observations from a re-analysis of the deposited data

Results flagged for a closer look

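Among 138 groups of values screened, 5 held a library far from the others of its group, and chance alone flags about 1 group in 20. In experiment 1, re-colonized B was low for gngt1, at 8.04 CPM against 14.1 to 15.9 in the other 5, and for sagb, at 19.6 CPM against 34.3 to 38.1. Axenic A was high for pde6b, at 22.5 CPM against 13.2 to 16.2, and conventional H was high for arr3a, at 163.2 CPM against 90.9 to 112.6. In experiment 2, conventional 1 was high for gnat2, at 1389 CPM against 567.4 to 896.3. No reason for these values was tested.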

How the results depend on the processing

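No change of a called member reversed in any setting. In experiment 1 the count of members higher in axenic heads was 24 to 29 against conventional and 23 to 31 against re-colonized heads when each library was left out in turn, and the count lower was 0 to 1 in both. The 1 lower call, pde6ga, became 0 with DESeq2's size factors in edgeR, with no filter, without structural RNAs, with only the 2 groups compared and with limma voom. In experiment 2 the count higher was 2 to 5 and 0 to 3 without one library, and the count lower was 0 throughout. With limma voom it became 9 and 5, with DESeq2 7 against re-colonized heads, and without re-colonized 1 and 7 it was 1 against re-colonized heads. The comparison of re-colonized with conventional heads, and the cone to rod pairs, stayed at 0 without any one library. The share of all genes called was counted for the main fits alone, so the counts in other settings have no background beside them. A higher count there may thus not be particular to the members. The cause of these shifts was not tested.

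With the replicate name as a block (replicate block), the counts higher were 28 and 20 in experiment 1 and 6 and 6 in experiment 2, against conventional and re-colonized heads, with 1 lower against conventional heads in experiment 1 and 0 in re-colonized against conventional heads. The share of all genes called with the block was not counted. Same-named libraries of different groups deviated together only in part, with correlations of -0.04 to 0.23 over 13 pairs in experiment 1 and -0.19 to 0.40 over 15 pairs in experiment 2, and 5 of 18 and 10 of 18 libraries correlated best with their own name. In experiment 2 this is at most a hint of pairing from the data, not the design. Differently named libraries there reached 0.433 (re-colonized 7 with conventional 5) and -0.492 (re-colonized 1 with conventional 2). How many best matches unrelated names would give was not computed. Since the correlation was over 0.1 in 4 of 13 and 10 of 15 pairs, and not in all, the names were not taken to pair the libraries. Depth limits cngb3.1, guca1a, guca1b, grk7b and slc24a1, which lie under 5 CPM in every library of experiment 1.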
